A study of Callithrix jacchus with 5 samples.

Results

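The genes described here encode proteins of the mitochondrial respiratory chain and of the mitochondrial ribosome. They are all gene identifiers in the count table with a symbol of the families below and at least 10 counts in 1 of the 5 libraries. The symbols begin with NDUF (complex I), UQCR (complex III), COX followed by a digit (complex IV), ATP5 (ATP synthase), MRPL or MRPS. MRPL and MRPS are named for the large and the small ribosomal subunit. The rule gave 98 of 30811 identifiers, and no candidate fell below 10 counts. There were 48 respiratory chain genes (29 NDUF, 3 UQCR, 9 COX and 7 ATP5) and 50 mitochondrial ribosome genes (32 MRPL and 18 MRPS). Of the 48, 11 are assembly factors that carry such a symbol but are not part of the finished complexes: NDUFAF1, NDUFAF3, NDUFAF4, NDUFAF5, NDUFAF6, NDUFAF7, COX11, COX15, COX17, COX18 and COX19. Only 41.1% of all identifiers matched a symbol, and 68 of 166 symbols of these families in the gene name table belong to identifiers that are not in the count table, so the families are described by their measured members. All 98 members passed the filter on low counts.

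RNA was sequenced from cultured cells of the common marmoset, a small New World monkey. The fibroblast group is 1 library, E01F at P1. The embryonic stem (ES) cell group is 3 libraries of separately named lines, No40 at P63, DSY127 at P17 and No20 at P45. The induced pluripotent stem (iPS) cell group is 1 library, RNAiPS_1, from cells that the series title describes as reprogrammed from fibroblasts with RNA. What the P numbers count is not spelled out in the labels, and neither is the culture medium or whether RNAiPS_1 descends from E01F. Each of the fibroblast and iPS groups is thus 1 culture, the p-values measure only the spread between the 3 ES lines, and line, P number and library cannot be told apart.

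The respiratory chain passes electrons from NADH and succinate to oxygen through complexes I to IV, of which complexes I, III and IV pump protons across the inner mitochondrial membrane, and ATP synthase uses the returning protons to make ATP. A small set of core subunits is encoded in mitochondrial DNA and translated by the mitochondrial ribosome inside the organelle, while all other subunits and every protein of that ribosome are encoded in the nucleus. Pluripotent cells are known for a high rate of glycolysis beside their respiration. No gene of the mitochondrial chromosome is among the identifiers of the count table, so the values below are of nuclear genes alone. In a culture measured in bulk, a lower level can be fewer cells of a type or less RNA per cell, which cannot be told apart.

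Total counts were 34111715 to 58601185 in the fibroblast and ES libraries and 5746449 in the iPS library. A count of 3 corresponds to 0.061 to 0.0834 CPM (counts over TMM-adjusted library totals) in the former and to 0.507 CPM in the latter. The labelled cell types showed their defining markers. All 8 pluripotency markers tested were called lower and all 9 fibroblast markers called higher in the fibroblast library than in the ES lines, with POU5F1 at 1.64 CPM against 1425 ± 301 CPM (SD, n = 3) and COL1A1 at 32526 CPM against 862 ± 348 CPM (SD, n = 3). In the iPS library POU5F1 was at 1286 CPM. The summed fibroblast markers stood at 12641 CPM in iPS cells, 4029 to 5647 CPM across the ES lines, with 84811 CPM in the fibroblast library, with no marker at 0. In the iPS library 1 of these 9 (COL1A2, 3447 CPM) was called higher than in the ES lines. COL1A1 (4922 CPM), COL3A1 (1684 CPM) and FAP (13.7 CPM) were also above every ES line there. VIM and POSTN lay within the ES lines, and DCN, PDGFRA and FN1 lay below them. The median iPS difference over the 9 was 0.00 (log2). The part of these fibroblast-marker transcripts in the iPS values below was not tested.

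The first question was whether any of these genes differed between fibroblasts and ES cells. None of the 98 passed at an adjusted p under 0.05 (edgeR quasi-likelihood test, Benjamini-Hochberg adjustment over 17462 genes), whereas 18.1% of all genes tested passed, 8.80% higher and 9.28% lower in fibroblasts. At an unadjusted p under 0.05 the count was 6, 2 higher and 4 lower in fibroblasts, against 34.0% of all genes. DESeq2 called 1 member lower (MRPS26) where it called 27.2% of all genes, and limma voom called none. The fitted log2 differences lay between -1.30 and 1.11, and 92 of 98 members (93.9%) were within 1 log2 unit of the ES mean, compared with 50% of all genes and 65.4% of the 9591 genes with at least 10 CPM in the ES lines. The standard errors of the members were 0.32 to 1.17 with a median of 0.43, so a difference of the size seen here was in most cases not detectable with 1 library against 3.

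The 6 members beyond 1 log2 unit were MRPL24, MRPS18B and COX6A2 on the higher side and MRPL47, MRPS26 and COX11 on the lower side. MRPL24, a protein of the large ribosomal subunit (ENSCJAG00000006151, chromosome 18, 10806805 to 10808248, minus strand, in the coordinates of the count table, of unstated genome build), was measured at 79.5 CPM in fibroblasts, 32.9, 44.1 and 39 CPM in lines No40, DSY127 and No20, and 31.9 CPM in iPS cells. The fibroblast value lay above all ES lines and the iPS value below all of them, and the fibroblast difference of 1.04 ± 0.36 (log2, SE) had the smallest adjusted p of any member, 0.0927 (edgeR). MRPS18B, a small subunit protein, had the same arrangement, with 61 CPM in fibroblasts, 25.6, 34.9 and 30.6 CPM across the ES lines, with 24.3 CPM in iPS cells. Its difference was 1.01 ± 0.38 (adjusted p = 0.111, edgeR). The gene model of MRPS18B spans positions 31034958 to 31137773 of chromosome 4.

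MRPS26, a small subunit protein, stood at 32.8 CPM in fibroblasts, at 55.4, 89 and 91.4 CPM in No40, DSY127 and No20, and at 65.8 CPM in iPS cells. The fibroblast library was below every ES line and the iPS library was among them. The fibroblast difference was -1.26 ± 0.45 with an adjusted p of 0.102 in edgeR and -1.24 with an adjusted p of 0.0464 in DESeq2, the single call on a member in any fit. MRPL47, of the large subunit, was at 33.1 CPM in fibroblasts and at 48.7, 95.2, 101 and 95.7 CPM in No40, DSY127, No20 and the iPS cells. Here too the fibroblast value was lowest and No40 stood apart from the other lines (-1.30 ± 0.53, adjusted p = 0.134, edgeR). MRPL38 was at 21.3 CPM in fibroblasts, 38.5 to 44.6 CPM across the ES lines, with 44.3 CPM in iPS cells (-0.94 ± 0.39 for fibroblasts, adjusted p = 0.146, edgeR). MRPL43 went the other way, with 120 CPM in fibroblasts, 60.7, 59.7 and 84.7 CPM across the ES lines, with 78.8 CPM in iPS cells (0.82 ± 0.36, adjusted p = 0.165, edgeR). Its exons overlap another gene model on the opposite strand, and the strand setting of the counting is not known here, so its level is uncertain.

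COX11, which delivers copper to complex IV during assembly, was measured at 23.8 CPM in fibroblasts, 57.6, 39.7 and 55.5 CPM in No40, DSY127 and No20, and 40.9 CPM in iPS cells. Fibroblasts were below and iPS cells within the ES lines (-1.10 ± 0.43, adjusted p = 0.124, edgeR). The exons of COX11 overlap TOM1L1 on the opposite strand, which makes its level uncertain. COX17, the copper chaperone that acts before COX11, was at 16 CPM in fibroblasts, 33.1, 29.1 and 21.7 CPM across the ES lines, with 47.8 CPM in iPS cells. The fibroblast value was below and the iPS value above all ES lines, with differences of -0.81 ± 0.45 (adjusted p = 0.257, edgeR) and 0.77 ± 0.42 (adjusted p = 0.672, edgeR). COX15, an enzyme of heme A synthesis, was at 62.5 CPM in fibroblasts, 61.2, 40.5 and 46.6 CPM across the ES lines, with 45.3 CPM in iPS cells. Its fibroblast difference of 0.34 ± 0.39 became -0.05 when libraries were scaled by total counts alone.

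**Figure D1:**
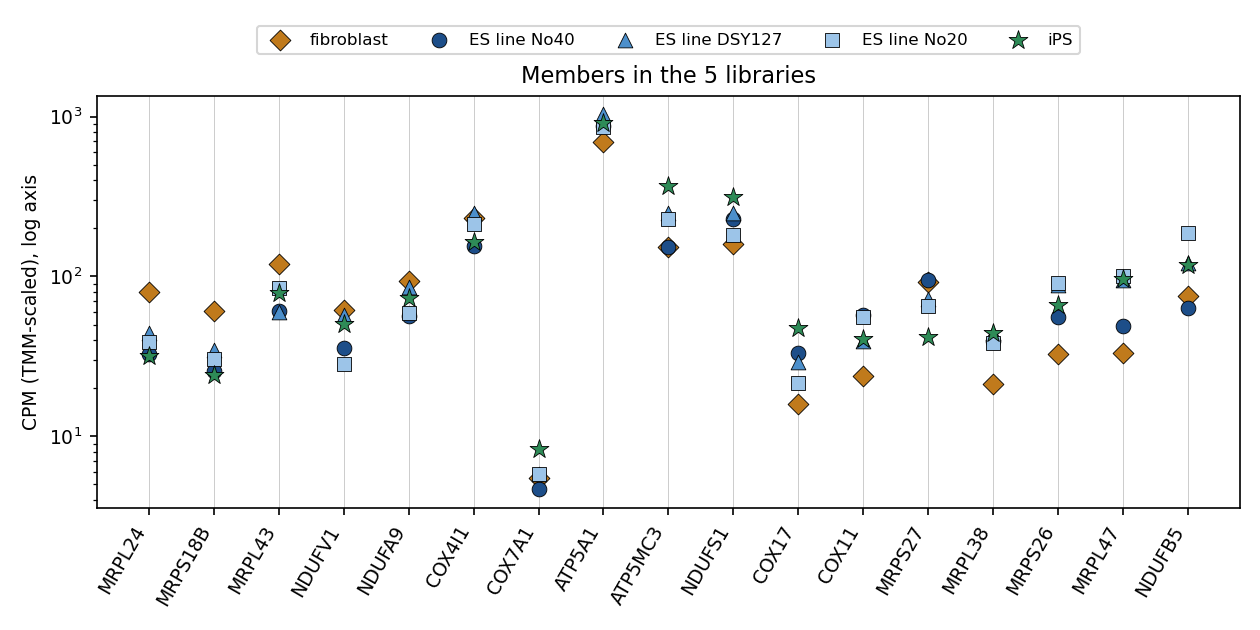
CPM on a log axis of members by gene, in the fibroblast library (diamond), the ES lines No40 (circle), DSY127 (triangle) and No20 (square) and the iPS library (star), each point 1 library. The diamond stands above the other 4 symbols for genes such as MRPL24, MRPS18B and MRPL43. It stands below them for others such as MRPS26, MRPL47, MRPL38 and COX11. Among several such genes, the star is on top for ATP5MC3 (367 CPM) and at the bottom for MRPS27 (42.1 CPM).

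Complex I was measured through 7 core subunits, which form the electron-transferring arm, 16 accessory subunits and 6 assembly factors. In fibroblasts the median log2 difference was -0.15 over the core subunits and -0.14 over the accessory subunits. It was -0.15 over all genes tested and -0.02 over genes with at least 10 CPM in the ES lines. NDUFV1, the core subunit that binds NADH, had 61.5 CPM in fibroblasts, 35.5, 57.5 and 28.2 CPM in No40, DSY127 and No20, and 50.7 CPM in iPS cells. Fibroblasts were highest by a small margin over DSY127 (0.61 ± 0.47, adjusted p = 0.408, edgeR), and the exons of this gene also overlap another model. NDUFAB1, the mitochondrial acyl carrier protein and an accessory subunit, had 36.9 CPM in fibroblasts, 41.8, 67.6 and 72.7 CPM across the ES lines, with 90.4 CPM in iPS cells. These values put fibroblasts below and iPS cells above every ES line, with differences of -0.72 ± 0.45 (adjusted p = 0.308, edgeR) and 0.57 ± 0.42 (adjusted p = 0.753, edgeR). NDUFB11, a membrane-arm accessory subunit, had 68.1 CPM in fibroblasts and 34.6, 60.4, 50.3 and 65.8 CPM in No40, DSY127, No20 and iPS cells, so that both the fibroblast and the iPS library lay above the ES lines (0.49 ± 0.42 for fibroblasts, adjusted p = 0.448, edgeR).

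For complex III, UQCRC1, a core protein, was measured at 265 CPM in fibroblasts, 180, 247 and 283 CPM in No40, DSY127 and No20, and 172 CPM in iPS cells. Fibroblasts were within the ES lines and iPS cells just below them. UQCRB, a small subunit at the ubiquinone-binding site, had 48.6 CPM in fibroblasts, 25.3, 52.6 and 54.5 CPM across the ES lines, with 58 CPM in iPS cells. UQCRFS1, the Rieske iron-sulfur subunit, varied less, from 71.6 CPM in fibroblasts to 95.2 CPM in DSY127. The fibroblast differences of UQCRC1 (0.17 ± 0.37) and UQCRB (0.14 ± 0.51) turned negative with upper-quartile scaling (-0.09 and -0.12) or total counts (-0.22 and -0.25).

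COX4I1, the ubiquitous form of subunit 4 of complex IV (ENSCJAG00000017319, chromosome 20, 40200497 to 40207684, plus strand), was at 233 CPM in fibroblasts, 156, 249 and 212 CPM in No40, DSY127 and No20, and 164 CPM in iPS cells, all within the ES range. Its fibroblast difference was 0.18 ± 0.38 (-0.08 with upper-quartile scaling, -0.20 with total counts). COX7A1, the heart and skeletal muscle form of subunit 7A, was at 5.48 CPM in fibroblasts, 4.67 to 5.85 CPM across the ES lines, with 8.28 CPM in iPS cells. COX6A2, the muscle form of subunit 6A, was at 2.02 CPM in fibroblasts and at 0.65, 0.528, 1.62 and 0.676 CPM in No40, DSY127, No20 and iPS cells (1.11 ± 0.91 for fibroblasts, adjusted p = 0.437, edgeR). The 5 muscle markers tested summed to 27.3 CPM in the fibroblast library, 9.04 to 41 CPM across the ES lines, with 11.7 CPM in the iPS library, and 3 of them were called higher in fibroblasts. Their part in the level of COX6A2 was not tested. The other isoforms of these subunits matched no identifier and were not analysed here.

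ATP5A1 (now ATP5F1A), the alpha subunit of the catalytic head of ATP synthase (ENSCJAG00000008319, chromosome 13, 83813026 to 83827601, minus strand), was the member with the most reads per kilobase in the ES lines. It was measured at 696 CPM in fibroblasts, 874, 1030 and 859 CPM in No40, DSY127 and No20, and 910 CPM in iPS cells. The fibroblast value was below every ES line and the iPS value among them (-0.40 ± 0.32 for fibroblasts, adjusted p = 0.422, edgeR). ATP5MC3, 1 of the genes for the membrane rotor ring, was at 153 CPM in fibroblasts, 152, 251 and 230 CPM across the ES lines, with 367 CPM in iPS cells (95% exact Poisson interval 352 to 383 CPM, counting error only). The iPS library was above every ES line, with the largest positive iPS difference of any member (0.80 ± 0.38, adjusted p = 0.625, edgeR). ATP5H (now ATP5PD), of the peripheral stalk, had 140 CPM in fibroblasts, 153, 233 and 228 CPM across the ES lines, with 244 CPM in iPS cells. ATP5PB, another stalk subunit, was arranged differently, with 139 CPM in fibroblasts, 62.3, 115 and 129 CPM across the ES lines, with 80.8 CPM in iPS cells, and its exons overlap WDR77 on the opposite strand. The 7 ATP5 genes had a median difference of -0.40 in fibroblasts, against -0.15 over all genes and -0.02 over genes with at least 10 CPM.

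Per kilobase of gene model, the ES lines held more respiratory chain than mitochondrial ribosome transcript. The median of the members' ES means was 58 reads per kilobase scaled to the library total (RPKM) for the respiratory chain, 43 RPKM for the ribosome and 6.58 RPKM for all genes tested. Among families the median was 162 RPKM for ATP5, 97.7 for UQCR, 60 for NDUF, 43.5 for MRPS, 43 for MRPL and 20.2 for COX. The COX family joins 5 assembly factors, at a median of 20.2 RPKM, with 4 subunits at a median of 90 RPKM. These subunits were split, with COX4I1 at 259 and COX5B at 174 RPKM, but the muscle forms COX7A1 at 6.25 and COX6A2 at 2.28 RPKM. The highest genes of each family in the ES lines were ATP5A1 at 390 ± 40.1 RPKM (SD, n = 3 for each), COX4I1 at 259 ± 59, NDUFB9 at 179 ± 48.6, UQCRC1 at 119 ± 26.2, MRPL12 at 103 ± 23.3 and MRPS34 at 98.9 ± 15.4. In this order the ranges of mean ± SD overlapped between neighbours from COX4I1 on, and only those of ATP5A1 and COX4I1 did not, although COX4I1 was above NDUFB9, and NDUFB9 above UQCRC1, in each of the 3 lines. At the low end, NDUFB8 (2.58 RPKM) and COX19 (1.02 RPKM), named after their values were seen, share exons with another gene model on their own strand, so their levels are uncertain.

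The iPS library was then compared with the same ES lines. No member passed in either direction (edgeR, smallest adjusted p 0.617), where 0.109% of all genes did, and no member had an unadjusted p under 0.05, compared with 8.69% of all genes. DESeq2, which called 2.38% of all genes, and limma voom also called no member. Among genes with at least 10 CPM in the ES lines edgeR called 0.115%. The iPS value was within 1 log2 unit of the ES mean for 97 of 98 members, against 71.5% of all genes and 88.7% of genes with at least 10 CPM. The exception was COX19, which had 1 count in the iPS library. Because both comparisons use the same ES libraries, their values are not independent of each other.

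Respiratory chain and ribosome genes were placed differently around the ES lines in the iPS library. Of 48 respiratory chain genes, 18 (37.5%) lay above all 3 ES lines and 4 below, while 4 of 50 ribosome genes (8%) lay above and 12 (24%) below. Over all genes tested 26.5% lay above and 32.0% below, and over genes with at least 10 CPM 20.5% above and 34.1% below. The 18 were ATP5F1D, ATP5H, ATP5MC3, ATP5PF, COX17, COX5B, COX7A1, NDUFAB1, NDUFAF6, NDUFB11, NDUFB3, NDUFB4, NDUFB7, NDUFB9, NDUFS1, NDUFS4, NDUFV2 and UQCRB. They come from all 4 respiratory chain families, and the 4 below were COX19, NDUFAF4, NDUFAF7 and UQCRC1. Among the 18, the highest ES value lay inside the iPS Poisson interval (counting error only) for ATP5F1D, ATP5H, ATP5PF, NDUFB11, NDUFB3, NDUFB4 and UQCRB. For the 4 below, the lowest ES value lay inside it. Some ribosome genes, such as MRPL16 above and MRPL14 below, were likewise within counting error of the nearest ES line. The 12 ribosome genes below were 7 of the large and 5 of the small subunit. Short genes as a whole were high in the iPS library, with a median deviation from the ES mean of 0.21 over all genes of 39 to 994 bases and -0.04 to -0.12 in longer bins. The cytosolic ribosomal proteins, which are also short and abundant, had 16 of 44 genes (36.4%) above and 15.9% below the ES lines. After each library was centred on genes of like length, 13 respiratory chain genes were above and 11 below, and 6 ribosome genes were above and 16 below, against 28.0% and 31.2% of all genes. Without No40 the numbers below were 13 of 48 and 31 of 50, with 18 and 4 above. The numbers above were 25 and 13 without DSY127 and 24 and 10 without No20. With a line left out the ES range is narrower for genes of any kind. The share over all genes was not determined for these settings, so these numbers have no background beside them. The difference between the classes has no test, since it rests on 1 iPS library.

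Among the ribosome genes, MRPS27 (ENSCJAG00000016356, chromosome 2, 136237927 to 136341213) had the lowest iPS level relative to the ES lines of its family. It was at 92.5 CPM in fibroblasts, 94.7, 71.9 and 65.2 CPM in No40, DSY127 and No20, and 42.1 CPM in iPS cells (Poisson interval 37 to 47.7 CPM), below every other library (-0.88 ± 0.40, adjusted p = 0.617, edgeR). MRPL14, a large subunit protein, was at 28.6 CPM in fibroblasts, 15.5, 26.8 and 25.8 CPM across the ES lines, with 13.9 CPM in iPS cells (-0.71 ± 0.52, adjusted p = 0.755, edgeR). In both genes the iPS library was the lowest of the 5, narrowly so for MRPL14. The 4 ribosome genes above the ES lines were MRPL16, MRPL22, MRPL32 and MRPL48, all of the large subunit. MRPL48 was at 43.4 CPM in iPS cells, 22.3, 38.3 and 28.1 CPM across the ES lines, with 21.9 CPM in fibroblasts (0.56 ± 0.44, adjusted p = 0.771, edgeR).

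On the respiratory chain side NDUFB7, a complex I accessory subunit, was at 36.2 CPM in fibroblasts, 38.4, 75.7 and 53.1 CPM in No40, DSY127 and No20, and 86 CPM in iPS cells (0.63 ± 0.45, adjusted p = 0.749, edgeR). COX5B, a complex IV subunit, was at 53.6 CPM in fibroblasts, 33.9, 59.6 and 56.6 CPM across the ES lines, with 76.7 CPM in iPS cells (0.62 ± 0.43, adjusted p = 0.745, edgeR). Both had their highest value in the iPS library and their lowest ES value in No40. The complex I assembly factors were split: NDUFAF4 was at 9.97 CPM in iPS cells against 12.6 to 25 CPM in the ES lines (-0.95 ± 0.58, adjusted p = 0.717, edgeR), and NDUFAF6 at 5.75 CPM against 2.74 to 3.64 CPM (0.79 ± 0.64, adjusted p = 0.775, edgeR). NDUFS1, the largest iron-sulfur subunit of complex I and named after its values were seen, was at 159 CPM in fibroblasts, 227, 248 and 181 CPM across the ES lines, with 316 CPM in iPS cells.

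The respiratory chain was set against the mitochondrial ribosome within each library, as the median log2 deviation from the ES mean over the 48 genes minus that over the 50 (for an ES line, from the mean of the other 2 lines). The scaling between libraries cancels in this difference. It was 0.14 in fibroblasts (medians -0.02 and -0.16), 0.00 in No40 (-0.55 and -0.56), -0.04 in DSY127 (0.29 and 0.33), -0.06 in No20 (0.21 and 0.27) and 0.18 in iPS cells (0.10 and -0.09). The ES lines differed from each other by little (SD 0.03 over the 3 lines), and the fibroblast and iPS values lay above all 3. The 3 ES values are not independent, since each line is set against the other 2. The fibroblast and iPS values are set against all 3, so this SD is not a replicate spread for them. The iPS value was between 0.16 and 0.27 under the alternatives run. The fibroblast value was 0.03 without DSY127 and 0.21 without No40. When means replaced medians it was 0.04 in fibroblasts, 0.05 in No40, -0.10 in DSY127 and 0.05 in No20, so the fibroblast value was then no longer above the ES lines and these lay farther apart, while the iPS value was 0.19. With 1 library a group no test applies.

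**Figure D2:**
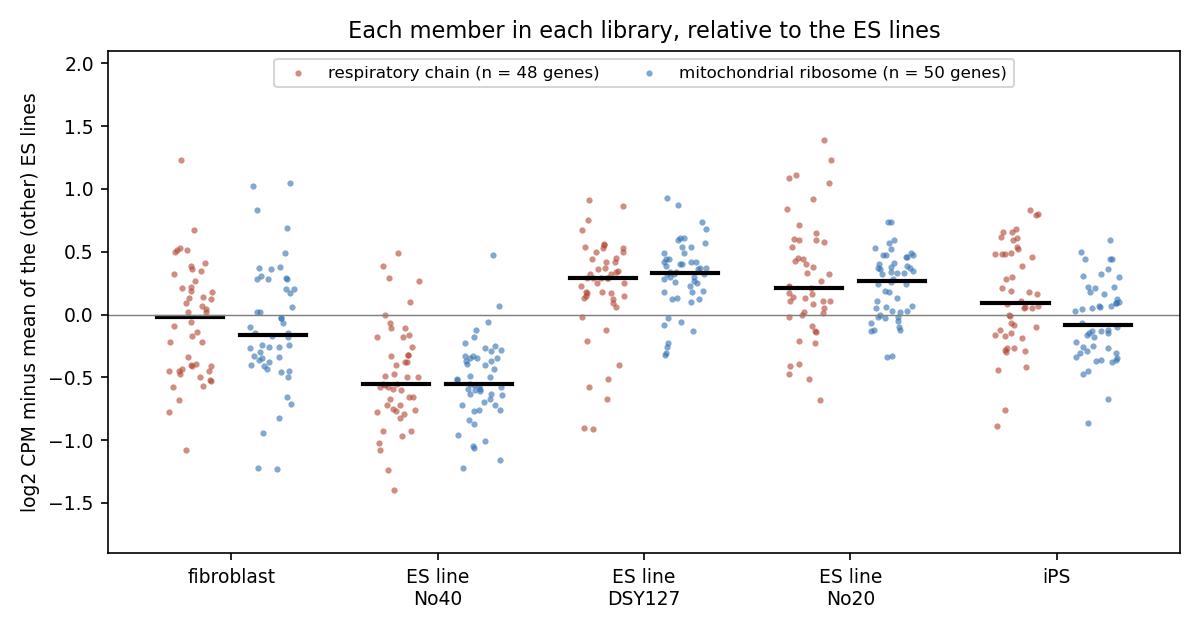
Log2 CPM of each member minus the mean of the ES lines (for an ES line, minus the mean of the other 2 lines), 1 point per gene, by library, for respiratory chain and mitochondrial ribosome genes, with a bar at each median. Both classes sit together at about -0.55 in No40, and the medians are farthest apart in the iPS library (0.10 and -0.09).

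As a share of all counts, respiratory chain genes took 0.306% in the fibroblast library, 0.369%, 0.508% and 0.491% in No40, DSY127 and No20, and 0.487% in the iPS library. Ribosome genes took 0.199%, then 0.227%, 0.325% and 0.314%, and 0.269%. Fibroblasts had the lowest share of both classes, with No40 next, and the iPS share was within the ES range for both classes. The order of the lowest libraries depends on the scale. Over TMM-adjusted totals the respiratory chain summed to 3768 CPM in fibroblasts and 3487 CPM in No40, and the ribosome to 2444 and 2150 CPM, so that No40 was lowest. As a share of reads per base the respiratory chain took 0.662% in fibroblasts and 0.684% in No40, and the ribosome 0.4% and 0.41%. The summed respiratory chain counts were 1.54 times the summed ribosome counts in fibroblasts (95% exact binomial interval 1.53 to 1.55, counting error only), 1.62, 1.56 and 1.57 times in the ES lines and 1.81 times (1.77 to 1.85) in iPS cells. The iPS ratio was outside the ES spread (1.58 ± 0.0329, SD, n = 3). A few abundant genes weigh on it: ATP5A1 alone made up 18.5% of respiratory chain counts in fibroblasts, 25.1% in No40, 21.4% in DSY127, 18.7% in No20 and 19.2% in iPS cells. Without ATP5A1, ATP5MC3 and NDUFS1, left out after their values were seen, the ratio was 1.13 in fibroblasts, 1.04, 1.07 and 1.13 in the ES lines and 1.2 in iPS cells.

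**Figure D3:**
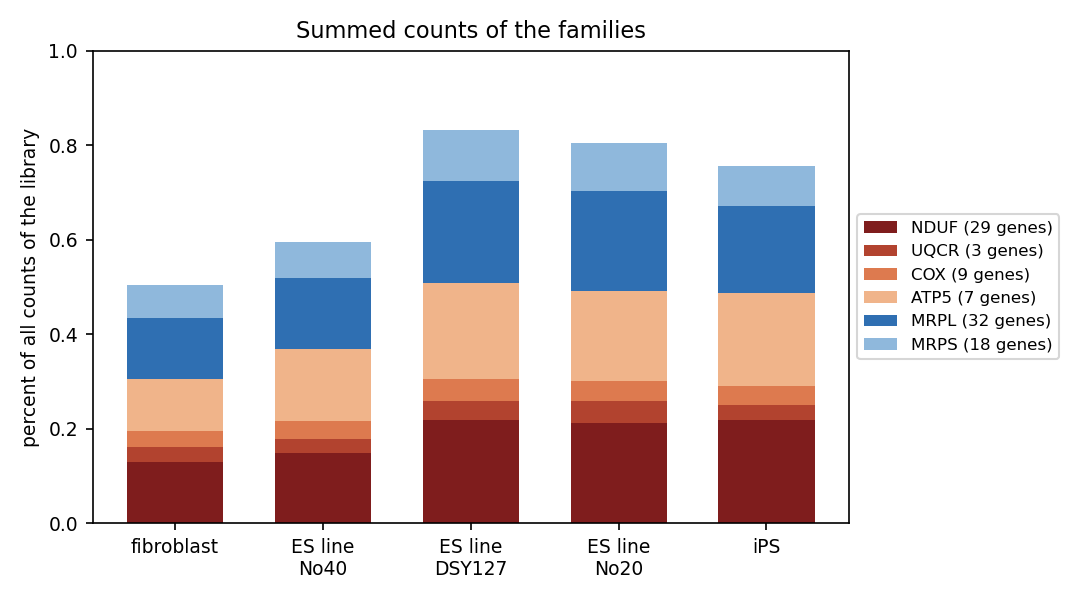
Summed counts of each gene family as a percentage of all counts, stacked from 0, 1 bar per library. The fibroblast bar is the shortest (0.505% in all), No40 (0.596%) is the shortest of the ES lines, and DSY127 (0.833%), No20 (0.805%) and the iPS library (0.757%) are taller.

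The difference between ES lines was wide compared with that between groups. Line No40 had the lowest level of the 3 lines for 80 of 98 members (81.6%), against 34.1% of all genes tested and 35.9% of genes with at least 10 CPM (over all genes DSY127 was lowest for 30.4% and No20 for 35.5%). It was lowest for 36 of 48 respiratory chain genes and 44 of 50 ribosome genes. By family the counts were 24 of 29 NDUF genes, 3 of 3 UQCR, 3 of 9 COX, 6 of 7 ATP5, 28 of 32 MRPL and 16 of 18 MRPS. All 16 accessory subunits of complex I were lowest in No40, as were 4 of the 7 core subunits. The median deviation of No40 from the other lines was -0.55 (log2) over the members and 0.03 over all genes. The members with the highest ES value in No40 were 4, COX11, COX15, COX17 and MRPS27, of which the first 3 serve complex IV assembly, and none of the 5 COX assembly factors was lowest there. These counts describe 1 line against 2 others and have no test.

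Gene length moved with this pattern. The members are short, with a median gene model of 1076 bases against 2074 bases over all genes tested, and short genes as a whole were lower in No40. In genes of 39 to 994 bases the median deviation of No40 was -0.22 over all genes and -0.65 over 44 members. In genes of 995 to 1711 bases it was -0.11 and -0.50 (36 members), in genes of 1712 to 2495 bases 0.02 and -0.55 (13 members), and in genes of 2495 to 3733 bases 0.10 and 0.10, there over 5 members. Among genes under 995 bases with at least 10 CPM in the ES lines, 37 of 41 members (90.2%) and 66.1% of all genes were lowest in No40. After each library was centred on genes of like length, No40 was lowest for 73 of 98 members, against 34.7% of all genes, and the members' median deviation was -0.38. The cytosolic ribosomal proteins, another group of short and abundant genes, were lowest in No40 in 39 of 44 cases. The part of RNA quality or library preparation in the level of No40 was not tested.

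**Figure D4:**
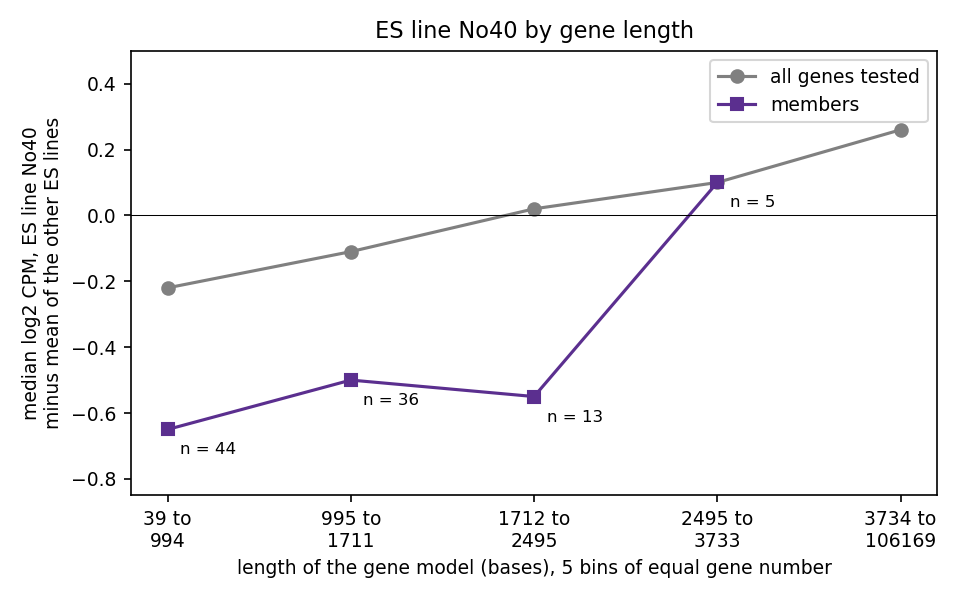
Median log2 deviation of line No40 from the mean of the other 2 ES lines, by bin of gene model length in bases, for all genes tested and for the members in the bin. All genes go from -0.22 in the shortest bin to 0.26 in the longest, and the members lie at -0.65, -0.50 and -0.55 in the first 3 bins and at 0.10 in the fourth, which holds 5 members.

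The 3 members with at least 5 CPM that varied most between ES lines were all complex I accessory subunits. NDUFB1 was at 9.37, 20.6 and 30.1 CPM in No40, DSY127 and No20 (SD 0.86 on the log2 scale), with 16 CPM in fibroblasts and 24.7 CPM in iPS cells. NDUFB5 was at 63.7, 121 and 187 CPM (SD 0.78), with 75.9 CPM in fibroblasts and 118 CPM in iPS cells. NDUFB2 was at 13.5, 19.7 and 38.4 CPM (SD 0.76), with 30.7 CPM in fibroblasts and 22.5 CPM in iPS cells. In all of them No40 was lowest, No20 highest, and the fibroblast and iPS values were inside the ES range. The median SD between ES lines was 0.36 over the members and 0.33 over genes with at least 10 CPM.

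The members lie on 23 chromosomes, and only 2 pairs are neighbours within 10000 bases, both in head-to-head orientation. MRPL47 (chromosome 15, 1225668 to 1246569, minus strand) and NDUFB5 (1246736 to 1268727, plus strand) are 166 bases apart. Relative to the ES mean (an ES line to the other 2), MRPL47 stood at -1.23 in fibroblasts, -1.01, 0.44 and 0.57 in No40, DSY127 and No20, and 0.30 in iPS cells. NDUFB5 stood at -0.58, then -1.24, 0.15 and 1.09, and 0.06, so both were low in No40 and high in No20. MRPS11 (chromosome 6, 18901628 to 18910485, minus strand) and MRPL46 (18910823 to 18918777, plus strand) are 337 bases apart. They shared the low value in No40 (-1.16 and -1.05) and differed in sign in fibroblasts (0.38 and -0.38). Chromosome 15 as a whole was higher in No20, with a median deviation of 0.35 over all its genes, and its 7 members (COX17, MRPL47, MRPS25, NDUFAF3, NDUFB4, NDUFB5 and UQCRC1) had a median of 0.44. No20 was the highest ES line for 6 of these 7 and for 54.5% of all genes of the chromosome.

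Between the unreplicated libraries, the iPS level was above the fibroblast level for 62 of 98 members, 30 of 48 in the respiratory chain and 32 of 50 in the ribosome. It was so for 8851 of 17462 genes tested and for 4570 of 9591 genes with at least 10 CPM in the ES lines. The median log2 ratio of iPS to fibroblast was 0.15 and 0.17 for these classes, 0.03 over all genes and -0.06 over genes with at least 10 CPM. For fibroblasts against ES lines the medians were -0.04 over the respiratory chain and -0.21 over the ribosome. They were -0.15 over all genes and -0.02 over genes with at least 10 CPM in the ES lines. Fibroblasts were above all ES lines for 18 of 98 members and below all for 30, while over all genes tested 35.4% were above and 39.0% below, and over genes with at least 10 CPM 37.8% and 36.1%. Scaling by total counts moved the median over all genes from -0.15 to -0.54, and the class medians moved with it to -0.43 and -0.59. Gene length moved with the fibroblast values too: the median deviation over all genes ran from -0.44 in the shortest bin to 0.24 in the longest. After length centring the class medians were 0.18 and 0.05, beside 0.01 over all genes. The place of the classes relative to all genes also changed with the filter and the ES lines: with the strict filter the respiratory chain was at -0.11 and all genes at -0.04, without No40 at -0.10 and -0.05, and with no filter the ribosome was at -0.20 and all genes at -0.30.

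Other genes of the same pathways were described from lists of their own. Beside the counts below, 18.1% of all genes tested were called in fibroblasts, 8.80% higher and 9.28% lower. Complex II, the entry point of electrons from succinate, had 1 of 4 genes called, with SDHA at 215 CPM in fibroblasts, 62.7 ± 9.29 CPM in the ES lines (SD, n = 3) and 44.1 CPM in iPS cells (1.78 ± 0.33 for fibroblasts, adjusted p = 0.0146, edgeR). Of 10 complex I assembly factors without an NDUFAF symbol, 1 was called: ACAD9 was lower in fibroblasts, at 28.8 CPM against 98.7 ± 9.72 CPM (SD, n = 3), a difference of -1.78 ± 0.38 (adjusted p = 0.0231, edgeR). No gene was called among 21 assembly factors of complexes II to V, 16 genes of an electron carrier list and 5 ribosome proteins with other symbols. None was called among 13 translation factors, 18 genes of mitochondrial tRNA charging and 17 ribosome assembly factors. The carrier list is mostly coenzyme Q synthesis genes (COQ and PDSS symbols) and includes CYC1, a complex III subunit outside the rule. The tRNA charging list includes GATB and QRSL1 of an amidotransferase, and GARS1 and KARS1, which also encode cytosolic enzymes. Among 17 regulators of mitochondrial biogenesis 1 was called, PPARGC1A, a transcriptional coactivator of respiratory genes, at 17.2 CPM in fibroblasts, 2.39 ± 0.959 CPM in the ES lines (SD, n = 3) and 0.676 CPM in iPS cells (2.85 ± 0.63 for fibroblasts, adjusted p = 0.0249, edgeR). NRF1, a transcription factor of the same genes, was at 14.9 CPM in fibroblasts, 13.7 to 18.1 CPM across the ES lines, with 19.1 CPM in iPS cells and was not called.

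The citric acid cycle list had 1 of 16 genes called, OGDHL, a homologue of the oxoglutarate dehydrogenase E1 subunit, which was lower in fibroblasts at 0.798 CPM, with 50.9 ± 19.9 CPM across the ES lines (SD, n = 3; -5.99 ± 0.76, adjusted p = 0.00469, edgeR). Of 11 import genes 1 was called, TIMM17B of the inner membrane translocase, lower in fibroblasts at 13.6 CPM against 48.3 ± 1.37 CPM (SD, n = 3; -1.83 ± 0.41, adjusted p = 0.0259, edgeR). Of 17 glycolysis and lactate genes, PFKP was called higher and SLC2A1 lower in fibroblasts, and the list median was 0.01. The share called over all genes tested was 18.1%. Most of these mitochondrial lists were low in No40, as the members were. The number with the lowest ES value there was 16 of 21 for assembly factors of complexes II to V (median deviation -0.39). For the electron carrier list it was 12 of 16 (-0.36), for translation factors 10 of 13 (-0.41) and for import 8 of 11 (-0.49). For other ribosome proteins it was 4 of 5 (-0.58) and for ribosome assembly 11 of 17 (-0.37). Complex II had 3 of 4 lowest in No40 (-0.28) and complex I assembly 5 of 10 (-0.27). The tRNA charging genes had 9 of 18 (-0.18) and the citric acid cycle 9 of 16 (-0.25). Glycolysis, with 2 of 17 genes (0.38), and the regulators of biogenesis, with 3 of 17 (0.26), had the opposite sign. Over all genes tested No40 was lowest for 34.1%. Its median deviation over all genes ran from -0.22 in the shortest length bin to 0.26 in the longest. The lists were not centred on gene length, and the part of length in their values was not tested. In the iPS library no gene of these lists was called, where 0.109% of all genes tested were.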

How the data were processed

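For 5 libraries (1 fibroblast, 3 ES lines, 1 iPS) the authors deposited unnormalized counts of reads for each gene, with the length of each gene model, in a table identical to the 5 single files. The submitters' processing notes name featureCounts 1.5.2, STAR 2.5.3a and Trim Galore 0.4.0, without role or order. Not given in the sources used here are the build, annotation, strand setting and treatment of multi-mapping reads. Short subunit genes often have pseudogenes, which could share or remove reads. Symbols came from a gene name table (12660 identifiers matched).

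In R 4.3.3, filterByExpr kept 17462 genes, and edgeR 4.0.16 fitted all libraries in 1 model (TMM factors 0.813 to 1.07, quasi-likelihood tests, 2 residual degrees of freedom, common biological coefficient of variation 0.458), with Benjamini-Hochberg adjustment over all genes and a threshold of 0.05. The unreplicated groups borrow the spread of the ES lines. Log2 CPM used a prior count of 2. The steps were run on simulated counts with a spread below the common value of these data and changes larger than those of the members. That run does not show what could be called among the members. Alternatives were DESeq2 1.42.0, limma 3.58.1 voom, other scalings, other filters, leaving out each ES line, structural genes alone and means. Added after seeing the data were centring on 20 bins of gene length, the alternatives for the counts of members outside the ES range, and leaving out members that overlap another gene model.

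Members named are those with the 2 highest and 2 lowest fold changes of each family and comparison (at least 5 CPM), the highest per kilobase, tissue isoforms, the 3 most variable between ES lines, and others where stated. Some members that the rule gives are summarised only. Members and lists were chosen with earlier results of these data known. Lists were matched by current symbol. No sequences are shown. Intervals cover counting error only, since reads carry no molecular identifiers.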

Additional observations from a re-analysis of the deposited data

How the results depend on the processing

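Across all alternatives 0 of 98 members were called in either comparison, except that DESeq2 called 1 member lower in fibroblasts, and with the strict filter 96 members were tested. Of the values that answer a comparison, 199 kept to within the replicate spread or 1.5 times the count and 22 moved. The 199 include values that could not move, since scaling cancels in the difference between the classes. For the class medians the spread was 0.47 to 0.50 (log2). The respiratory chain median in fibroblasts thus counted as kept although it went from -0.04 to -0.43 with total counts. The respiratory chain minus ribosome difference in fibroblasts was 0.03 to 0.21 when each ES line was left out, 0.09 for structural genes and 0.04 with means. In No40 it was 0.05 with means and 0.04 with length centring. In DSY127 it was -0.04 to -0.01 when a line was left out and -0.10 with means. In No20 it was -0.01 to 0.04 when a line was left out, -0.11 for structural genes and 0.05 with means. In iPS cells it was 0.22 with the strict filter, 0.27 for structural genes and 0.25 without members that overlap another gene model. Among iPS genes outside the ES range, respiratory chain genes below were 11 with length centring and 5 to 13 when a line was left out (most without No40), ribosome genes above 4 to 13 (most without DSY127) and ribosome genes below 12 to 31 (most without No40), where leaving out a line can only add genes. The share over all genes with a line left out was not determined. The cause was not tested for the other values. Over all genes, 18.1% were called in fibroblasts, 10.2% without No40 and 26.5% without No20, and in iPS cells 19 genes were called, 0 without No40, 41 without DSY127 and 268 without No20.

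Single genes near 0 changed sign. In iPS cells ATP5A1 became 0.02 with upper-quartile factors, 0.04 with the strict filter and 0.07 without DSY127. When each ES line was left out, UQCRFS1 was -0.14 to 0.02 (positive without DSY127) and COX6A2 -0.77 to 0.22 (positive without No20). In fibroblasts, with total counts, ATP5PF became -0.04, COX15 -0.05, COX4I1 -0.20, COX7A1 -0.38, UQCRB -0.25 and UQCRC1 -0.22. With upper-quartile factors COX4I1 became -0.08, COX7A1 -0.25, UQCRB -0.12 and UQCRC1 -0.09. COX7A1 was also -0.05 with the strict filter and ran from -0.02 (without No40) to 0.18 when a line was left out, and UQCRB from -0.07 (without No40) to 0.43. No paired analysis was possible because the labels give no replicate numbers shared between groups and the fibroblast and iPS groups have 1 library each. With 2 residual degrees of freedom no member was called in edgeR, including the 6 beyond 1 log2 unit in fibroblasts, and in the iPS library (5746449 counts) even COL1A1, at 2.51 ± 0.44, was not called (adjusted p = 0.105, edgeR).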
